A study of Mus musculus with 8 samples.

Results

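The change from embryonic stem cells (ESCs) to primordial germ cell-like cells (PGCLCs) that took place without Tfap2c was measured on 4 of the 8 mouse arrays of the series, 2 of Tfap2c-/- ESCs (KO ESC) and 2 of sorted Tfap2c-/- PGCLCs (KO PGC). All 4 arrays were chosen by their labels and not by a measured value, while the comparison itself was chosen with earlier results of these data known. Tfap2c encodes the transcription factor AP-2 gamma, which is required in the germ line. All cells of the series carried the Blimp1mVenus reporter, a fluorescent protein under the control of Prdm1 (Blimp1), and came from 2 ESC lines derived from blastocysts with both Tfap2c alleles floxed. The knockout cells had been made from these lines by transient transfection with a pgk-Cre plasmid, and the unrecombined parental lines served as controls (Ctrl ESC and Ctrl PGC, 2 arrays each). ESCs were kept with LIF, the MEK inhibitor PD0325901 and the GSK3 inhibitor CHIR99021. For PGCLCs the cells were first turned into epiblast-like cells over 2 days, then cultured with BMP4, BMP8b, SCF, LIF and EGF, dissociated, and sorted for mVenus. The day of the sort is not given for the arrays. Both genotypes went through the same steps, so the ESC and PGCLC groups differ in medium, in the sort and in cell state at once, and these cannot be told apart. The labels number the arrays of a group 1 and 2 and do not tie the numbers to the 2 lines, so a p-value measures the spread between these arrays. All values are log2 expression levels as the authors normalized them, a difference of 1 being a doubling, and the sample RNA is from many cells, so that fewer cells of a type and less RNA per cell cannot be told apart.

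Primordial germ cells are the precursors of sperm and egg. In the mouse embryo BMP signals induce them in the epiblast, where Prdm1, Prdm14 and Tfap2c set up the germ cell program and repress the somatic one. The naive state of ESCs is held by LIF together with blocked ERK signalling and active beta-catenin, the effector of WNT signalling, which the inhibitor of GSK3 releases. On the way to PGCLCs these inhibitors are withdrawn and BMPs are added.

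Tfap2c itself had levels well above the array medians in the libraries labelled knockout. It read 7.28 and 6.47 in the KO ESC arrays and 8.52 and 8.85 in the KO PGC arrays. Both PGCLC arrays lay above both ESC arrays, and the log2 difference of 1.81 did not pass the test (adjusted p = 0.0749 by limma, SE 0.42). The arrays of controls read 7.88 and 9.14 in ESCs and 9.84 and 10.29 in PGCLCs, above the knockout arrays of the same cell type in both. Its 3 probe sets gave differences of 1.81 to 1.91 in the knockout cells. Their position relative to the floxed exons is not given in the sources used here, so these values do not check the deletion. The study examined it by genotyping PCR and by staining ESCs for TFAP2C protein. For RT-PCR of PGCLCs its legend reports no signal in the Tfap2c-/- cells, without naming the gene.

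A gene was taken as changed at an adjusted p under 0.05 in limma, a linear model with moderated variances, after Benjamini-Hochberg adjustment across the 18193 genes measured, each gene being read from its brightest probe set. From KO ESCs to KO PGCLCs 422 genes changed, 2.32 percent of all genes. Of these 245 rose (1.35 percent) and 177 fell (0.973 percent). An unadjusted p under 0.05 was reached by 3370 genes. The smallest change among the 422 genes was 0.28 on the log2 scale and the median size was 1.52. By the rule of the study, in which the group means must lie more than 1.5 log2 units apart and nothing is tested, 397 genes passed (2.18 percent), 270 higher (1.48 percent) and 127 lower (0.698 percent) in PGCLCs, and 217 genes passed both rules. The median difference over all genes was -0.06. The count depended on each array. It was 80 without KO PGC 1, 129 without KO PGC 2, 169 without KO ESC 1 and 157 without KO ESC 2. Leaving out a control array, which does not enter the difference but adds to the estimate of the spread, gave 223 and 222 for Ctrl ESC 1 and 2 and 278 for either Ctrl PGC array. Of the 59 genes named here that changed, 17 passed without any 1 of the 8 arrays. These were Id2, Lrrn4, Amot, Car2, Ccdc141, Jakmip1, Scd1, Nfe2l3, Dppa2, Enpp3, Fgf15, Hoxc13, Sfrp2, Stmn3, Lrp2, Hk1 and Junb, and each of the other 42 missed the threshold without at least 1 array, with no change of sign.

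The arrays were alike in their medians (3.47 to 3.55) but not in their control probe sets. The poly-A RNA spiked into the labelling reaction had a mean log2 level of 5.37 and 5.05 in KO ESCs and of 6.81 and 6.19 in KO PGCLCs. For Gapdh, whose 3′ part is overrepresented where RNA is less intact, the 3′ probe set was above the 5′ probe set by 0.38 and 0.39 in KO ESCs and by 0.52 on both KO PGC arrays. Both measures move with the comparison, and their part in the results was not tested. Of 21 genes that dissociating and sorting cells can induce, 1 rose (Junb, by 1.72) and 0 fell. This was 4.76 percent of the list, beside 2.32 percent of all genes. An unadjusted p under 0.05 was reached by 8 of the 21 genes, beside 18.5 percent of all genes. The largest difference in the list was 2.46, in a gene that did not pass. The mean level of these 21 genes was 6.57 and 6.36 in KO ESCs and 6.92 and 6.81 in KO PGCLCs.

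The largest rise among the called genes was that of Id2, an inhibitor of basic helix-loop-helix factors and a classical BMP target. Its level was 3.51 and 3.90 in KO ESCs and 9.77 and 8.80 in KO PGCLCs, a log2 difference of 5.58 (adjusted p = 0.00567 by limma, SE 0.49). In controls it rose by 4.69. Among called genes the growth factor gene Igf2 followed, at 4.41 and 4.17 in KO ESCs and 9.45 and 8.11 in KO PGCLCs, a rise of 4.49 (adjusted p = 0.0163 by limma, SE 0.61). Dkk1, which encodes a secreted WNT inhibitor, stood at 2.30 and 2.71 in KO ESCs and at 7.63 and 6.12 in KO PGCLCs, a rise of 4.37. In all of these genes both PGCLC arrays lay above both ESC arrays, a condition for being named among the largest rises. Of their PGCLC arrays KO PGC 1 was the higher. The next rises were those of Pmp22, a myelin protein (4.26), Lrrn4, a leucine-rich repeat membrane protein (4.02), Rnf128, a ubiquitin ligase (3.76), Rgs5, a regulator of G protein signalling (3.69), Greb1l (3.63), Amot, the angiomotin of the Hippo pathway (3.61), and Car2, a carbonic anhydrase (3.60). Lrrn4 had the same change in both genotypes, 4.02 in the knockout and 4.0 in controls, with a difference between them of 0.02 (adjusted p = 0.997 by limma, SE 0.55). The amino acid transporter gene Slc38a4, named after its values were seen, had a larger difference than Igf2, 5.02, from 5.47 and 2.30 in KO ESCs to 8.67 and 9.14 in KO PGCLCs, and did not pass (adjusted p = 0.056, limma). Other probe sets of Id2 and Amot gave differences down to 0.75 and -0.26, and those of Igf2, Rgs5 and Greb1l down to 0.13, 0.11 and 0.21.

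The largest fall among the called genes was that of Cyp1a1, a monooxygenase induced through the aryl hydrocarbon receptor. Its level was 6.53 and 7.84 in KO ESCs and 3.47 and 2.57 in KO PGCLCs, a log2 difference of -4.16 (adjusted p = 0.02 by limma, SE 0.61), beside -4.45 in controls. The other large falls took in a membrane channel, enzymes and transcription factors. Trpm1, a cation channel, went from 9.32 and 9.26 in KO ESCs to 6.26 and 5.47 in KO PGCLCs (-3.42). Scd1, the stearoyl-CoA desaturase of fatty acid synthesis, went from 9.16 and 9.33 to 5.82 and 6.18, a difference of -3.25 (adjusted p = 0.0031 by limma, SE 0.24) that was -3.36 in controls. Nfe2l3, a basic leucine zipper factor, had the tightest values, 5.25 and 5.09 against 2.13 and 2.19 (-3.01). The remaining genes of the 10 largest called falls were 1700097N02Rik (-3.85), the homeobox gene Crxos (-3.58), Sp5, a zinc finger factor and WNT target (-3.56), Ccdc141 (-3.52), Jakmip1 (-3.30) and the dynein heavy chain gene Dnah8 (-3.14). Other probe sets of Trpm1, Jakmip1, Dnah8, Nfe2l3, Ccdc141 and Crxos gave differences up to 0.07, -0.22, -0.28, -0.30, -0.49 and -0.60. In all of the 10 genes the PGCLC arrays lay below both ESC arrays, a condition for being named among the largest falls. Groups of 2 arrays that do not overlap were frequent over all genes, however, with 18.5 percent higher and 29.5 percent lower in KO PGCLCs.

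**Figure D1:**
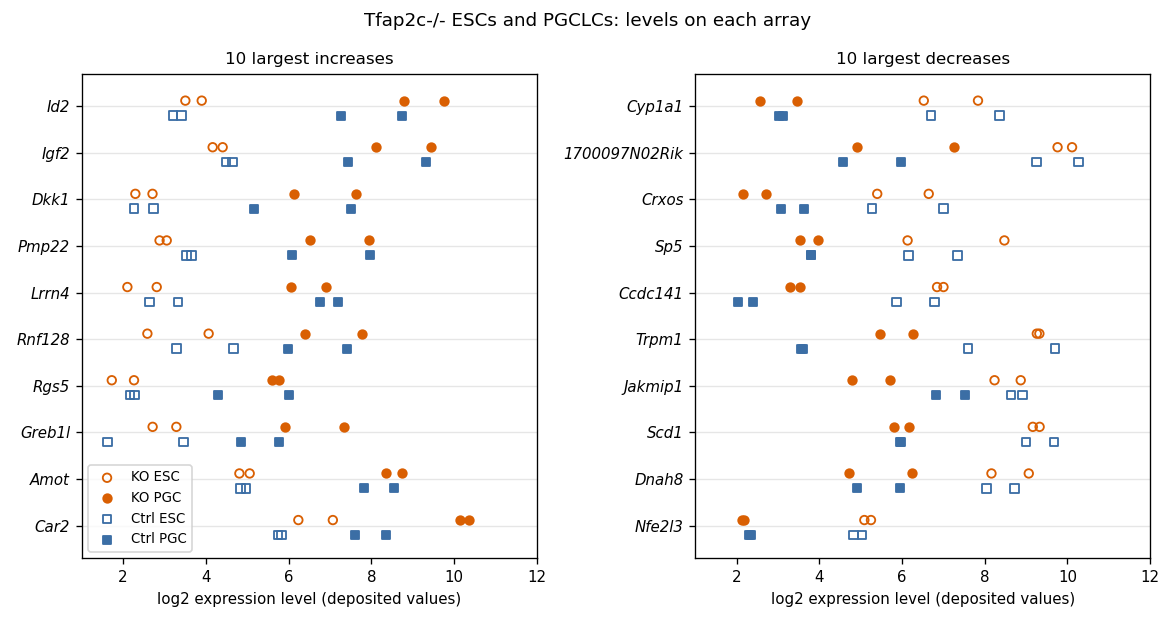
Log2 expression levels on each array for the 10 genes with the largest rise (left) and the 10 with the largest fall (right) from KO ESC to KO PGC, each point 1 array (circles knockout, squares control, open ESC, filled PGCLC). In every row the filled circles are apart from the open circles, as the choice of the genes required. For Id2 the filled circles sit at 9.77 and 8.80 against 3.51 and 3.90.

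Id2, Sp5 and Cyp1a1 stand for known routes of induction, so the sequence around their start sites is shown, as 250 bases before to 50 bases after the start in RefSeq on GRCm38.p6. Capitals mark the match to 1 motif, searched on both strands, and no match overlapped a match to another motif searched. In the Id2 window (chr12:25096043-25096342, minus strand) they mark GGCGCC, the GC-rich element that SMAD proteins of the BMP pathway can bind, 231 bases before the start. In the Sp5 window (chr2:70474673-70474972, plus strand) they mark CTTTGAT, the core recognised by TCF and LEF factors with beta-catenin, 104 bases before the start. In the Cyp1a1 window (chr9:57697363-57697662, plus strand) they mark GCGTG, the core of the element bound by the aryl hydrocarbon receptor, 54 bases before the start.
Id2: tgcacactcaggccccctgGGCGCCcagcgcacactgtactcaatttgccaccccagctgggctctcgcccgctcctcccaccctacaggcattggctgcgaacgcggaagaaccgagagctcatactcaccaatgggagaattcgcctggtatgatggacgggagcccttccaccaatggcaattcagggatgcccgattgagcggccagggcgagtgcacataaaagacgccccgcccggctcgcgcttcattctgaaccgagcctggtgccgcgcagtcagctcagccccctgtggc
Sp5: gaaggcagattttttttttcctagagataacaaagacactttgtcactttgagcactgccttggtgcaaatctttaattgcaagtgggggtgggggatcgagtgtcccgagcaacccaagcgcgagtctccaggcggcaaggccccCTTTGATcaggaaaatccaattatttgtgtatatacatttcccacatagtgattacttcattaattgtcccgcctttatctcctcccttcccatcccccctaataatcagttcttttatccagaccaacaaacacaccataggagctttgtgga
Cyp1a1: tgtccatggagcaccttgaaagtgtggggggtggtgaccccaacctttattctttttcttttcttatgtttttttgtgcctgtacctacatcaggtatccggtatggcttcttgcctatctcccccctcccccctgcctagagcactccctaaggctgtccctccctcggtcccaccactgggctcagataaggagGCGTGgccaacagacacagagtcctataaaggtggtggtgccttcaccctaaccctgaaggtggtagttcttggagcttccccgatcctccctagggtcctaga
Of 32851 windows of this length over all genes, 11.9 percent held GGCGCC, 3.73 percent held CTTTGAT and 32.4 percent held GCGTG on either strand. A match is a description of the letters in the window and not a binding site.

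Among genes that specify germ cells 1 of 7 measured rose in KO PGCLCs and 0 fell, with a median log2 difference of 0.76 against -0.06 over all genes. That was 14.3 percent of the list, beside 2.32 percent of all genes. An unadjusted p under 0.05 was reached by 3 of the 7, beside 18.5 percent of all genes. The gene that rose was Dnd1, an RNA-binding protein that keeps germ cells alive. It stood at 6.38 and 5.92 in KO ESCs and at 7.83 and 7.18 in KO PGCLCs, a rise of 1.35 (adjusted p = 0.0463 by limma, SE 0.26). Prdm1, which drives the reporter used for the sort, stood at 7.01 and 5.80 in KO ESCs and at 8.08 and 8.05 in KO PGCLCs, a difference of 1.66 outside the threshold (adjusted p = 0.0541, limma) that passed with a filter on dim genes, with a replicate block and without KO ESC 1. All 7 genes had a difference above 0, and with Prdm1 selected by the sort and Tfap2c targeted the list is not an independent measure. Prdm14, a repressor of DNA methylation and of somatic genes, did not separate the groups, at 7.63 and 7.71 in KO ESCs and 7.41 and 8.05 in KO PGCLCs (0.06). Dppa3 (Stella), a maternal factor and marker of germ cells, overlapped between the groups as well, with 4.62 and 6.55 in KO ESCs and 6.28 and 6.40 in KO PGCLCs. Its difference of 0.76 (adjusted p = 0.668 by limma, SE 0.85) stood beside a rise of 4.05 in controls, and the difference between the genotypes, -3.29, did not pass the test (adjusted p = 0.47, limma).

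Of 10 surface and guidance genes of early germ cells, 3 rose and 0 fell, and all 3 encode interferon-induced transmembrane proteins. The share past the test was 30.0 percent, beside 2.32 percent of all genes. At an unadjusted p under 0.05 stood 8 of the 10, beside 18.5 percent of all genes. Ifitm3 (Fragilis), the one known best from nascent germ cells, went from 9.10 and 9.35 in KO ESCs to 10.94 and 10.91 in KO PGCLCs, a rise of 1.70 (adjusted p = 0.00757 by limma, SE 0.18). Ifitm2 rose by 0.75 and Ifitm1 by 0.55. Kit and Alpl, also defining markers, lay lower in KO PGCLCs on both arrays. Kit, the receptor of SCF, read 7.70 and 8.09 in KO ESCs and 6.84 and 6.94 in KO PGCLCs, a difference of -1.0 just outside the threshold (adjusted p = 0.0532, limma). It passed in the fit with a filter on dim genes, after quantile normalization, and with a replicate block. Alpl, the tissue-nonspecific alkaline phosphatase, read 7.05 and 7.26 in KO ESCs and 6.72 and 6.40 in KO PGCLCs (-0.60, adjusted p = 0.151, limma). The control differences were 0.80 for Kit and 0.87 for Alpl. Of 8 germ cell markers measured, Dnd1 and Ifitm3 passed the test in the knockout, and Dppa3, Prdm14, Kit and Alpl did not lie above the ESC arrays, so the label PGC is borne out by part of its markers.

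The Rhox genes, reproductive homeobox genes of the X chromosome, included members that lay below the array medians in both cell types. Rhox6 read 3.43 and 2.71 in KO ESCs and 3.21 and 2.73 in KO PGCLCs, and Rhox9 read 3.10 and 2.70 in KO ESCs and 3.23 and 3.34 in KO PGCLCs. The differences of -0.10 and 0.38 did not pass the test. Rhox5, the founding member of the cluster, had 4.72 and 5.0 in KO ESCs and 5.90 and 5.77 in KO PGCLCs (0.98, adjusted p = 0.267, limma). Of the 4 Rhox genes measured 0 rose and 0 fell in limma (1 at an unadjusted p under 0.05), and 2 rose in controls. Of 34 later germ cell genes of the gonad, of meiosis and of the piRNA pathway, 0 rose and 1 fell, Tdrd12, a Tudor protein of the piRNA pathway, by 1.26 on the log2 scale. The share of 2.94 percent was near the 2.32 percent of all genes. An unadjusted p under 0.05 was reached by 3 of the 34, beside 18.5 percent of all genes. In these 34 genes 17 lay below 4 in both knockout groups. Dazl, an RNA-binding protein of gonadal germ cells, varied more between the KO ESC arrays (5.80 and 4.09) than between the groups (5.67 and 5.64 in KO PGCLCs), and this held for Dmrt1 too, with 7.30 and 5.36 in KO ESCs and 5.71 and 4.88 in KO PGCLCs.

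Genes of the core pluripotency network stayed highly expressed. Of 12 genes 3 rose and 0 fell, 25.0 percent of the list beside 2.32 percent of all genes. An unadjusted p under 0.05 was reached by 6 of the 12, beside 18.5 percent of all genes. Dppa2 rose by 1.65 (adjusted p = 0.0087 by limma, SE 0.18), from 9.32 and 8.83 in KO ESCs to 10.61 and 10.83 in KO PGCLCs, its partner Dppa4 by 0.69, and Utf1, a chromatin factor, by 1.17, with another probe set of Utf1 at -0.11. Pou5f1 (Oct4) read 11.20 and 11.32 in KO ESCs and 11.43 and 11.61 in KO PGCLCs, and its partner Sox2 differed by 0.14 between the groups. Nanog, at 10.58 and 10.55 in KO ESCs and 9.98 and 10.24 in KO PGCLCs, had a difference of -0.45 (adjusted p = 0.0778, limma). Naive pluripotency genes were mixed, with 1 of 23 higher and 2 lower. Past the test stood 13.0 percent of this list, and 7 of the 23 genes reached an unadjusted p under 0.05. Klf4 went from 10.87 and 11.11 in KO ESCs to 8.52 and 9.48 in KO PGCLCs, a difference of -1.99 (adjusted p = 0.0177 by limma, SE 0.28), beside -4.22 in controls. The difference between these changes was 2.23 and did not pass (adjusted p = 0.113, limma). The adhesion gene Jam2 fell by 1.52, with another probe set at 0.44. Eras, which encodes the constitutively active Ras protein of ESCs, moved the other way, from 7.24 and 6.57 in KO ESCs to 8.90 and 9.39 in KO PGCLCs, a rise of 2.24 (adjusted p = 0.0284 by limma, SE 0.36). In controls it fell by 1.45, and the difference between the genotypes, 3.69, missed the threshold (adjusted p = 0.0577, limma). Esrrb, Zfp42 and Tfcp2l1, further naive factors, had differences of -0.04, -0.23 and -0.83 and did not pass. Other probe sets gave differences down to -1.01 for Esrrb and up to -0.07 for Tfcp2l1.

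Genes of the primed epiblast included 5 rises among 21 genes (23.8 percent) and 0 falls, with a median difference of 0.75. Over all genes 2.32 percent passed. An unadjusted p under 0.05 was reached by 10 of the 21, beside 18.5 percent of all genes. Otx2, a homeobox factor of the epiblast and of the anterior brain, stood at 3.90 and 5.67 in KO ESCs and at 7.35 and 7.98 in KO PGCLCs, a rise of 2.88 (adjusted p = 0.0393 by limma, SE 0.53). Its ESC arrays differed by more than its PGCLC arrays. Fgf15, a ligand of the FGF family, had tight values, 3.53 and 3.43 in KO ESCs and 5.91 and 5.97 in KO PGCLCs, a rise of 2.46 (adjusted p = 0.00574 by limma, SE 0.22). In the control PGCLC arrays Fgf15 read 4.13 and 3.52, a difference of 0.21 from control ESCs, and the difference between genotypes of 2.25 missed the threshold (adjusted p = 0.0626, limma). The ectoenzyme gene Enpp3 rose by 2.75, while its 5 probe sets ran from no difference to 4.05. The zinc finger gene Sall2 rose by 1.87 and Nodal, a ligand of the TGF beta family, by 0.74. Nodal lies outside the rule for named genes and was added after its value was seen. Controls had differences of 1.15 for Otx2, 2.00 for Enpp3, 0.63 for Sall2 and 0.08 for Nodal. Fgf5 and Pou3f1, the markers used most for epiblast-like cells, were higher on both KO PGC arrays (4.38 and 3.09 against 2.10 and 1.91 for Fgf5, 4.92 and 4.65 against 4.14 and 3.63 for Pou3f1) without passing. Their other probe sets gave differences of -0.06 for Fgf5 and -0.05 for Pou3f1.

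**Figure D2:**
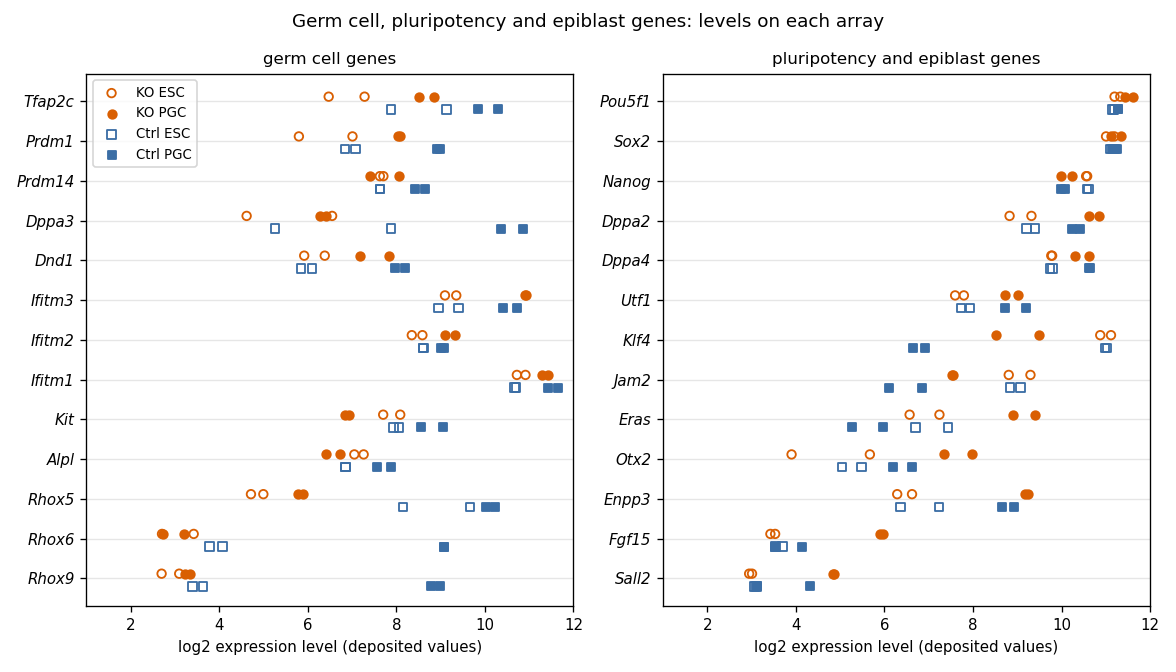
Log2 expression levels on each array for germ cell genes (left) and for pluripotency and epiblast genes (right), each point 1 array (circles knockout, squares control, open ESC, filled PGCLC). The knockout points of Rhox6 and Rhox9 lie between 2.70 and 3.43 in both cell types, while both KO PGC arrays lie above both KO ESC arrays for Ifitm3, Otx2 and Fgf15.

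Target genes of BMP signalling, the inducing signal of the PGCLC culture, included 4 rises and 0 falls among 18 genes, with a median difference of 0.97. Past the test stood 22.2 percent of the list, beside 2.32 percent of all genes. An unadjusted p under 0.05 was reached by 10 of the 18, beside 18.5 percent of all genes. Besides Id2, Id1 rose from 5.87 and 5.86 in KO ESCs to 9.95 and 8.96 in KO PGCLCs, by 3.59 (adjusted p = 0.0158 by limma, SE 0.48). The inhibitory SMAD genes, which feed back on the pathway, were higher as well. Smad6 went from 3.61 and 4.21 in KO ESCs to 6.40 and 5.69 in KO PGCLCs (2.13, adjusted p = 0.0158, limma), and Smad7 rose by 0.78. The mean level of the 18 genes was 4.30 and 4.34 in KO ESCs and 5.98 and 5.21 in KO PGCLCs, and KO PGC 1 exceeded KO PGC 2. In controls the corresponding differences were 1.70 for Id1, 2.30 for Smad6 and 0.48 for Smad7, and the difference between genotypes passed limma for 0 of the 18 genes (3 at an unadjusted p under 0.05).

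Target and feedback genes of ERK signalling, which the MEK inhibitor of the ESC medium blocks, had 2 rises and 0 falls among 17 genes. This was 11.8 percent of the list, beside 2.32 percent of all genes. At an unadjusted p under 0.05 stood 11 of the 17, beside 18.5 percent of all genes. The phosphatase gene Dusp4 went from 4.49 and 3.94 in KO ESCs to 7.52 and 6.72 in KO PGCLCs, a rise of 2.90 (adjusted p = 0.0161 by limma, SE 0.39). Phlda1, a pleckstrin homology domain gene, rose by 2.83, from 3.92 and 4.05 to 7.16 and 6.46. The median of the list was 0.97, and 16 of the 17 genes had a difference above 0. The list of WNT targets, which the GSK3 inhibitor activates in ESCs, had 3 falls and 1 rise among 15 genes and a median of -0.56. Past the test stood 26.7 percent of this list, and 6 of the 15 genes reached an unadjusted p under 0.05. Sp5 stood at 6.14 and 8.47 in KO ESCs and at 3.96 and 3.53 in KO PGCLCs (adjusted p = 0.049, limma), Axin2, a negative regulator of the pathway, at 6.92 and 8.12 against 5.38 and 4.06 (-2.80), and Cdx1, a caudal homeobox gene, at 4.52 and 5.86 against 2.78 and 3.02 (-2.29). In all of these KO ESC 2 was the higher ESC array. The member that rose was Dkk1, the secreted inhibitor described above. Differences in controls were -2.95 for Sp5, -1.72 for Axin2 and -1.65 for Cdx1, and by limma the difference between genotypes passed for 0 of the 15 genes (1 at an unadjusted p under 0.05). The second probe set of Axin2 gave 0.09 in the knockout.

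**Figure D3:**
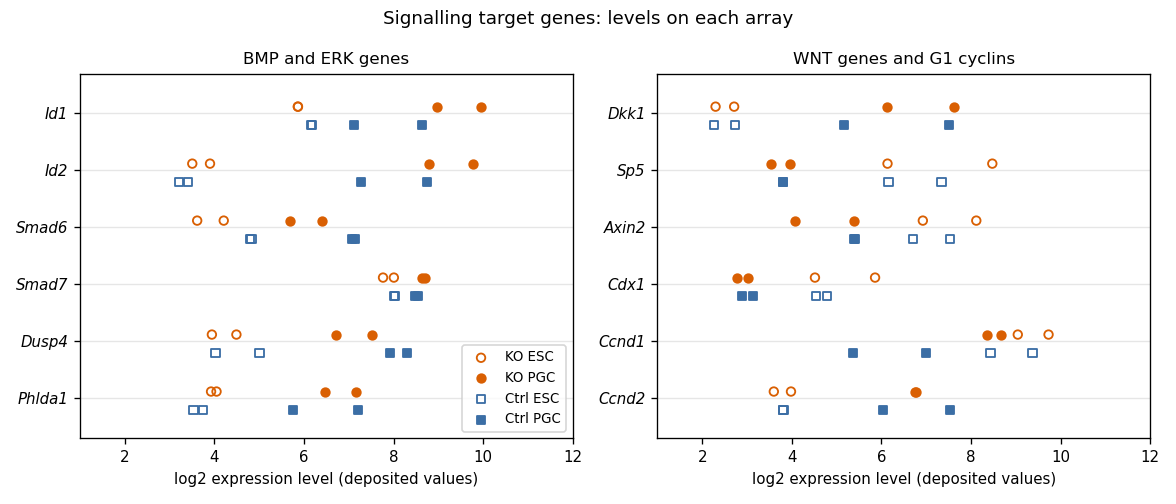
Log2 expression levels on each array for BMP and ERK target genes (left) and for WNT target genes and G1 cyclins (right), each point 1 array (circles knockout, squares control, open ESC, filled PGCLC). Filled circles lie right of open circles for every gene on the left, with Dusp4 at 7.52 and 6.72 against 4.49 and 3.94, and left of them for Sp5, Axin2 and Cdx1.

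Genes of other cell types that the sorted fraction could hold were read by list. Past the test stood 8.0 percent of mesoderm, 3.03 percent of Hox, 4.35 percent of endoderm and 5.56 percent of trophoblast genes. For blood and endothelial genes it was 0 percent, and over all genes 2.32 percent. At an unadjusted p under 0.05, which 18.5 percent of all genes reached, stood 6 of 25 mesoderm, 7 of 33 Hox, 9 of 23 endoderm, 4 of 18 trophoblast and 3 of 21 blood and endothelial genes. Of the 25 mesoderm and primitive streak genes 1 rose, the LIM homeobox gene Isl1 (2.46 and 2.44 in KO ESCs, 6.25 and 5.33 in KO PGCLCs, 3.34), and 1 fell, Cdx1. The largest difference of this list, -3.58 for the homeobox gene Nkx1-2, named after its values were seen (7.14 and 8.41 in KO ESCs, 4.92 and 3.47 in KO PGCLCs), did not pass (adjusted p = 0.0706, limma). The streak markers Mixl1, Eomes and Mesp1 had differences of -0.12, -0.42 and -0.12. Of the 33 Hox genes 0 rose and 1 fell, Hoxc13, by 1.89 on the log2 scale, and 23 of the 33 lay below 4 in both knockout groups. Of the 23 endoderm genes 1 rose, the endocytic receptor gene Lrp2, from 2.87 and 2.71 in KO ESCs to 6.70 and 5.51 in KO PGCLCs (3.32, adjusted p = 0.00876 by limma, SE 0.36), although another probe set of Lrp2 gave -0.33. Of the endoderm markers Sox17, Foxa2 and Afp stayed between 2.51 and 3.80 on the 4 arrays. Gata6 read 3.30 and 3.05 in KO ESCs and 4.48 and 4.06 in KO PGCLCs. Its difference of 1.09 did not pass (adjusted p = 0.254, limma), and another probe set gave -0.04. The mean level of the endoderm list was 3.88 and 3.74 in KO ESCs and 4.65 and 3.98 in KO PGCLCs. Of the 18 trophoblast and amnion genes 1 rose, Igf2, with list means of 4.41 and 4.21 in KO ESCs and 5.28 and 4.76 in KO PGCLCs. The markers Gata3, Cdx2 and Elf5 had differences of 1.83, 0.16 and -0.12 and did not pass. Gata3 read 2.45 and 1.91 in KO ESCs and 4.79 and 3.23 in KO PGCLCs. Of the 21 blood and endothelial genes 0 rose and 0 fell in limma, and the list means were 3.51 and 3.59 in KO ESCs and 3.66 and 3.40 in KO PGCLCs. Their markers Kdr, Cdh5, Tal1, Hba-x and Ptprc had differences of 0.67, 0.44, 0.22, -0.13 and -0.30. The part of such cells in the results was not tested.

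Of 32 neural genes 2 rose and 1 fell, 9.38 percent of the list beside 2.32 percent of all genes. An unadjusted p under 0.05 was reached by 9 of the 32, beside 18.5 percent of all genes. Sfrp2, a secreted WNT modulator, went from 4.01 and 4.10 in KO ESCs to 6.83 and 6.77 in KO PGCLCs, a rise of 2.75 (adjusted p = 0.00371 by limma, SE 0.21), and it rose by 1.59 in controls. Pax6, a paired homeobox factor of the eye and the brain, rose by 1.87 on 1 probe set, with another at -0.16. Stmn3, a stathmin of neurons, fell from 8.05 and 7.90 to 5.57 and 5.74, a difference of -2.32 (adjusted p = 0.00381 by limma, SE 0.19), beside -2.87 in controls. Sox1 and Tubb3, the markers of neural precursors and neurons, had differences of -0.74 and 0.04, with another probe set of Sox1 at 0.73. Sfrp1, related to Sfrp2, overlapped between the groups, at 7.59 and 8.31 in KO ESCs and 6.98 and 8.01 in KO PGCLCs (-0.46), where it fell by 2.60 in controls (difference 2.15, adjusted p = 0.244, limma). The list mean was 5.15 and 5.03 in KO ESCs and 5.23 and 5.16 in KO PGCLCs.

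Past the test stood 13.6 percent of histone methylation, 5.56 percent of DNA methylation, 4.35 percent of G1 and 3.57 percent of replication genes. Over all genes it was 2.32 percent. An unadjusted p under 0.05 was reached by 5 of 22, 9 of 18, 9 of 23 and 7 of 28 of them, in this order. Of all genes 18.5 percent reached it. Of 22 histone methylation genes 3 rose and 0 fell. These were Jarid2, a subunit of the Polycomb complex that methylates lysine 27 of histone H3 (1.12), and Ehmt2 and Ehmt1, the G9a and GLP methyltransferases of lysine 9 (1.05 and 0.71). Another probe set of Ehmt2 gave -0.32. Of 18 DNA methylation genes the methyl-binding protein gene Mbd2 rose by 1.30. The methyltransferase gene Dnmt3b read 9.30 and 9.78 in KO ESCs and 9.53 and 9.27 in KO PGCLCs (-0.14), and its cofactor gene Dnmt3l 6.70 and 6.50 against 8.96 and 7.99, a difference of 1.87 that did not pass (adjusted p = 0.218, limma). Of 23 G1 genes 1 rose, Ccnd2, which encodes cyclin D2, from 3.98 and 3.60 in KO ESCs to 6.75 and 6.77 in KO PGCLCs (2.97, adjusted p = 0.0185 by limma, SE 0.42). Cyclin D1 (Ccnd1) read 9.04 and 9.73 against 8.37 and 8.66 and did not pass (-0.87). Of 28 replication genes Mcm7 rose by 0.34, and of 33 respiratory chain genes 0 passed in limma (7 at an unadjusted p under 0.05).

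Among the other lists 2 of 31 imprinted genes rose (Igf2 and Peg12, by 4.49 and 1.35), and 2 of 24 adhesion genes, the epithelial regulators Esrp1 and Grhl2, by 1.80 and 1.76, although another probe set of Grhl2 gave -0.41. These were 6.45 and 8.33 percent of the lists, beside 2.32 percent of all genes. At an unadjusted p under 0.05 stood 15 of the 31 and 16 of the 24, beside 18.5 percent of all genes. Of the 24 adhesion genes 21 had a difference above 0, and their mean level was 5.80 and 5.54 in KO ESCs and 7.0 and 6.45 in KO PGCLCs. The imprinted RNA Meg3, read from outside the rule for named genes, differed most between arrays of 1 group, at 10.60 and 3.91 in KO PGCLCs. No gene of the lists of p53 targets (18 measured), MHC class I (14), AP-2 factors (5) and Xist with Y-linked genes (6) passed limma. An unadjusted p under 0.05 was reached by 12, 3, 2 and 0 of them, beside 18.5 percent of all genes. The p53 targets had a median difference of 0.46, beside -0.06 over all genes, and 15 of the 18 lay above 0. The largest differences among p53 targets were 2.41 for Perp, a desmosomal protein, and 1.44 for the kinase gene Plk2, and among MHC class I genes 2.18 for the proteasome gene Psmb8. The Y-linked genes Uty and Eif2s3y were lower on KO PGC 2 (3.42 and 7.45) than on KO PGC 1 (5.80 and 8.34). Eif2s3y differed in the same direction between the numbered arrays of controls, at 8.93 and 5.87 in ESCs and 8.79 and 5.54 in PGCLCs, and not between the KO ESC arrays (8.94 and 8.85).

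**Figure D4:**
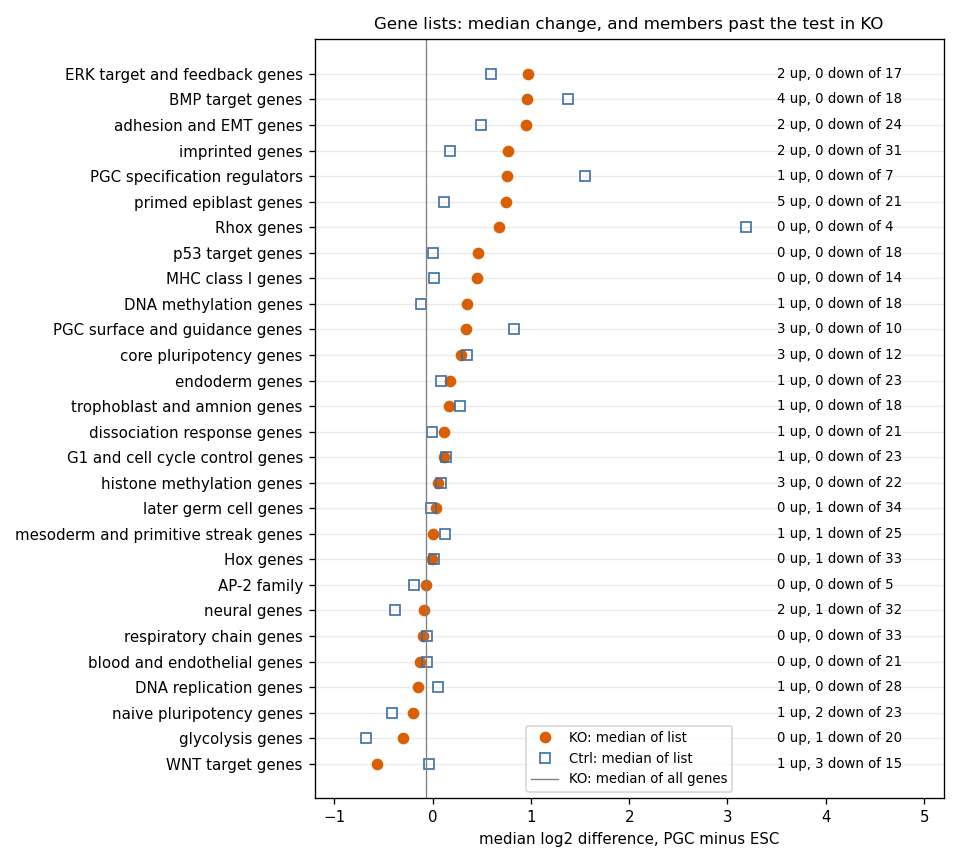
Median log2 difference between PGCLCs and ESCs for 28 gene lists, without that of Xist and Y-linked genes (x axis; circles knockout, squares control), with the number of measured members that rose or fell in the knockout. The medians of the BMP and ERK lists lie at 0.97 in the knockout, right of the line at -0.06 that marks all genes, and that of the WNT list at -0.56.

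The same change in control cells was read from the other 4 arrays, so its differences share no array with those of the knockout. The tests of both came from 1 fit and used the same estimate of the spread for each gene. A gene with a small spread was thus more readily called in both, and the shared calls are not independent of each other. The control change held 1522 called genes (8.37 percent), 845 higher (4.64 percent) and 677 lower (3.72 percent). Of the 422 genes called in the knockout 269 were called in the same direction in controls, 147 rises and 122 falls. This was 63.7 percent of the knockout calls and 17.7 percent of the control calls. The sign of the control change was the same for 401 of the 422 genes, and over all genes for 68.7 percent. The 845 genes that rose in controls had a median difference of 1.13 there and of 0.48 in the knockout, and the 677 that fell had -1.12 and -0.53. The genes that changed in the knockout had medians of 1.56 and -1.43 there and of 1.08 and -1.25 in controls. Each group was chosen for its size in 1 genotype, which makes that genotype's median the larger, so these medians are descriptions. The shared rises with the largest smaller change were Id2, Lrrn4, Dkk1, Igf2 and Pmp22, and the shared falls Cyp1a1, 1700097N02Rik, Ccdc141, Trpm1 and Scd1.

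Called in opposite directions were 3 genes, Afap1, Ttyh2 and Eras, of which Afap1 and Ttyh2 were named after their values were seen. Afap1, an actin filament adaptor, went from 6.73 and 7.02 in KO ESCs to 5.44 and 5.02 in KO PGCLCs (-1.65) and rose by 1.30 in controls. Ttyh2, a gene of the tweety membrane protein family, went from 5.51 and 5.70 to 3.88 and 4.07 (-1.64) and rose by 1.30 in controls. A further 150 genes were called in the knockout and not in controls. For 1 of these the difference between genotypes itself passed the test, Hk1, the hexokinase of the first step of glycolysis. Hk1 went from 7.64 and 7.16 in KO ESCs to 5.02 and 5.29 in KO PGCLCs (-2.24, adjusted p = 0.00664 by limma, SE 0.23), against 7.40 and 7.73 in control ESCs and 8.06 and 8.35 in control PGCLCs. Its change differed between the genotypes by -2.89 (adjusted p = 0.0242, limma), and its second probe set gave -0.38 in the knockout. Of 20 glycolysis genes Hk1 was the 1 that fell, and 0 rose. This was 5.0 percent of the list, beside 2.32 percent of all genes. An unadjusted p under 0.05 was reached by 9 of the 20, beside 18.5 percent of all genes.

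The difference between the changes of the genotypes passed for 27 genes (0.148 percent), 21 with a lower value in the knockout (0.115 percent) and 6 with a higher one (0.033 percent), and an unadjusted p under 0.05 was reached by 1639 genes. This contrast uses the arrays of both comparisons, so the values are set side by side. In the 21 genes the knockout difference ran from -2.24 to 1.21 and the control difference from 0.64 to 5.36. The 5 largest were Rhox6 (-5.25), Rhox9 (-4.98), BC048679 (-4.86), the choline dehydrogenase gene Chdh (-4.47) and the phospholipase gene Plcd1 (-4.29). Their own differences in the knockout ran from -0.36 to 0.38. Chdh read 2.57 and 2.60 in KO ESCs and 2.54 and 2.43 in KO PGCLCs, against 2.86 and 2.99 in control ESCs and 6.84 and 7.75 in control PGCLCs. Calcoco2, an autophagy receptor gene added after its values were seen, still rose in the knockout, by 1.21 beside 4.50 in controls. Cxcr4, the chemokine receptor of migrating germ cells, read 2.56 and 2.71 in KO ESCs and 2.51 and 2.24 in KO PGCLCs (-0.26), and its difference from the control change of 1.43 passed as well (-1.70, adjusted p = 0.047, limma). The Chdh window (chr14:30008750-30009049, plus strand, GRCm38.p6, RefSeq), shown for a gene with a rise in controls and none in the knockout, has the AP-2 motif GCCNNNGGC, here in capitals, 202 bases before the start. The motif reads alike on both strands and stands in 16.6 percent of all windows, and in 2 of the 3 windows given for Chdh. The window printed was the first of the 3 to hold it, so the match was fixed by that choice.
Chdh: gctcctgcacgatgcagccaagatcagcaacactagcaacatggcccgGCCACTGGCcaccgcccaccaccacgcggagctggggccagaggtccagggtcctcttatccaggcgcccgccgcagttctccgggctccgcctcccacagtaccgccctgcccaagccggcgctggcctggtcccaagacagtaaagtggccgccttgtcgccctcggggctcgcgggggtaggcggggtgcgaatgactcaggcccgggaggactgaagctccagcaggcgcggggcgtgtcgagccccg

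In the 6 genes with the higher value in the knockout the control fall was the larger. Cbr3, a carbonyl reductase, read 10.25 and 10.47 in KO ESCs and 9.32 and 9.17 in KO PGCLCs (-1.11, adjusted p = 0.0976, limma), against 5.01 and 4.26 in control PGCLCs. Stmn2, a stathmin of neurons, read 10.61 and 10.49 in KO ESCs and 9.22 and 9.15 in KO PGCLCs (-1.36, adjusted p = 0.0599, limma). Laptm5, a lysosomal membrane protein, read 9.36 and 9.42 in KO ESCs and 8.15 and 8.44 in KO PGCLCs (-1.10). For these genes both PGCLC arrays lay below both ESC arrays in the knockout too, without passing. Fgf4, the FGF ligand of naive cells, overlapped between KO ESCs (9.35 and 9.55) and KO PGCLCs (8.78 and 9.41), and Cobl, an actin nucleator, had differences of -0.39 in the knockout and -2.79 in controls. The number of these genes was the least stable of the counts. It was 1 without Ctrl ESC 1, 2 without KO PGC 2, 7 and 8 without KO ESC 1 and 2, 10 without KO PGC 1, 11 without Ctrl ESC 2 or Ctrl PGC 2, and 56 without Ctrl PGC 1.

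**Figure D5:**
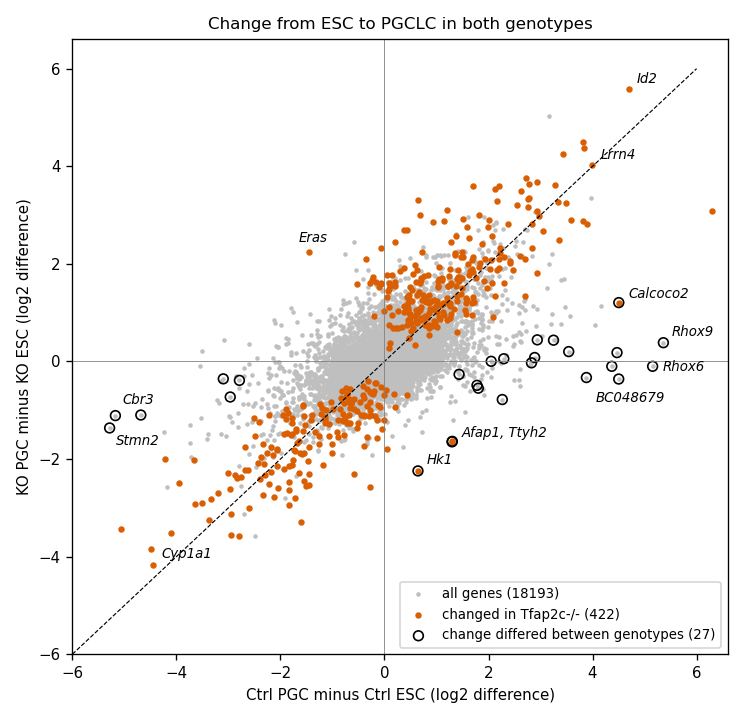
Log2 difference between PGCLCs and ESCs in the knockout (y axis) against that in controls (x axis), each point 1 gene, with the 422 genes changed in the knockout filled in orange and the 27 genes whose change differed between genotypes circled. Id2, Lrrn4 and Cyp1a1 lie near the dashed line of equal change, and Rhox6 lies at -0.10 in the knockout and 5.15 in controls.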

How the data were processed

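RNA of 4 labelled groups was hybridized to Affymetrix mouse arrays, 2 arrays a group. The deposited values are log2 expression levels that the authors normalized across the arrays, by RMA per the methods and by GCRMA per the submitters' processing notes, with no version. The number of arrays limits the precision. No further scaling was applied. Of 45101 probe sets 34945 name 1 gene in the platform annotation used here, 932 name several, 9160 are not listed and 64 are controls. A gene was read from whichever of its probe sets was brightest on average (18193 genes).

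The 4 group means were fitted together with limma 3.58.1 (R 4.3.3), without a replicate block (4 residual and 3.67 prior degrees of freedom, eBayes with a trend), tests were two-sided, with Benjamini-Hochberg adjustment across all genes and a threshold of 0.05. Values were handled in Python 3.11.15 with pandas 2.3.3 and NumPy 2.4.6, and plots drawn with Matplotlib 3.10.9. The fit was tested on simulated data. Named genes were the 10 largest rises and falls among called genes whose knockout groups do not overlap, up to 4 called members of each of 29 lists or else 2 uncalled ones, the 5 largest shared changes and genotype differences each way, cell type markers, and genes the study's text names. The comparison and the lists were chosen with earlier results of these data known. Alternatives were a replicate block, the knockout arrays alone, 1 array left out, other probe set rules, a filter at 5 on the log2 scale, no trend, centring, quantile normalization, and a fold rule of 1.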

Additional observations from a re-analysis of the deposited data

Results flagged for a closer look

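Between the genotypes 27 genes differed in their change from ESC to PGCLC by the test of that difference in limma. The knockout change minus the control change was -5.25 for Rhox6, -4.98 for Rhox9, -4.86 for BC048679, -4.47 for Chdh and -4.29 for Plcd1. It was 4.06 for Cbr3, 3.92 for Stmn2, 3.59 for Laptm5, 2.74 for Fgf4 and 2.40 for Cobl. For Rhox6 and Rhox9 the 4 knockout arrays and the 2 control ESC arrays read 2.70 to 4.07, and the 2 control PGCLC arrays 8.78 to 9.09.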

How the results depend on the processing

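None of the 59 named calls changed sign in any alternative. In the knockout comparison 56 genes passed with the 4 knockout arrays alone, which leaves 2 residual degrees of freedom, and 80 to 278 passed with 1 array left out, against 422. Other settings gave 287 (mean of probe sets) to 570 (filter on dim genes). The fold rule passed 254 genes with the mean of probe sets and 938 with a difference above 1, against 397. With 1 array left out limma called 325 to 1721 genes in controls, 59 to 130 genes in the same direction in both genotypes, and 1 to 56 genes for the difference between genotypes.

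The replicate block gave 454 knockout calls, 1571 control calls and 22 genes that differed between genotypes. The deviations of same-numbered arrays correlated by 0.26 between the knockout groups, 0.07 between the control groups, 0.39 between the PGCLC groups, -0.33 between the ESC groups and 0.17 between KO ESCs and control PGCLCs. As not every pair exceeded 0.1, the numbers were not taken as pairs. With the block 55 of the 59 named calls remained, and Sp5, Ifitm1, Ifitm2 and Mcm7 missed the threshold. The calls that remained were 20 of 59 with the knockout arrays alone, 41 with the mean of probe sets, 44 without trend, 50 with centred arrays and 57 with quantile normalization. The brightest probe set decides a gene's value, and differences of genes near the background can be compressed, which was not tested.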
